A study of Mus musculus with 24 samples.

Results

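Tcf7, Lef1, Gata3, Bcl11b and Satb1 are transcription factor and chromatin genes of T cell commitment, and their RNA was followed here through 8 groups of sorted mouse lymphocytes. All non-control probes that carry one of these 5 gene names on the array were taken, which gave 8 probes for 5 of the 34844 names (55681 non-control probes in all). Tcf7, Lef1 and Bcl11b had 2 probes each, and Gata3 and Satb1 had 1 each. Each of the 24 samples was hybridised to 1 single-colour Agilent array, and a level is the log2 signal minus the 75th percentile of its own array, so that a level of 0 lies at that percentile. All 8 probes passed the filter on dim probes, and 4 of them were not well above background on at least 1 array: both of Tcf7, 1 of Bcl11b and that of Satb1.

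The 4 wt thymocyte groups came from a thymus heterozygous for Foxn1 and are the double-negative stage DN3, the CD4 and CD8 double-positive stage DP, and the CD4 and CD8 single-positive stages SP4 and SP8 (n = 3 each). DP cells (n = 4) and surface IgM-negative B cells (n = 2) came from a Foxn1-deficient transgenic thymus (tg). Neither the transgenes nor the cells in which they act are named in the labels, which also leave unstated whether tg DP and tg B cells share a line. IgM-negative and IgM-positive B cells (n = 3 each) came from wild-type fetal liver. Foxn1 is the transcription factor that thymic epithelium needs. The labels give no ages or numbers of pooled animals. Replicates are not stated to be separate animals, and the spread on which the p-values rest may therefore be technical. Some title numbers are shared, 3 and 3A in wt DP and 6, 6A and 6B in tg DP, and SP4 samples were grouped by their titles because another label of theirs also names SP8.

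In the thymus, Notch signals turn on Tcf7 and Gata3 in early progenitors, and Bcl11b follows and closes the path to other lineages. Tcf7, whose protein is called TCF-1, and its relative Lef1 are HMG-box factors that bind DNA with beta-catenin or with Groucho corepressors and act again when CD4 cells are selected. Gata3 is a zinc-finger factor needed early and again for the CD4 lineage. Bcl11b is a zinc-finger repressor of progenitor and natural killer genes, and Satb1 is an organiser of chromatin loops that is abundant in thymocytes.

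The share of probes well above background was 87.5% to 96.6% on 23 arrays and 80.6% on tg B array 23. That array also had the lowest median processed signal, 128 where the other arrays had 214 to 323. It is 1 of 3 arrays, with tg DP 4 and IgM-positive 21, that an earlier principal component analysis of these data set apart, and results were also computed without all 3. Markers of the labelled lineages separated the groups weakly. Of 8 T cell markers, 7 were matched and all 7 were well above background on every array, B cells included. Their summed signal, in multiples of the 75th percentile, was 7.71 to 12.4 in wt thymocytes, 7.51 to 11.8 in tg DP, 7.80 to 9.05 in fetal liver B cells and 8.30 to 12.5 in tg B cells. Between wt thymocytes and fetal liver B cells, 5 of the 7 T markers were higher in thymocytes and 7 of 8 B markers were lower, with differences from -0.25 to 1.54 and from -1.49 to 0.08, and limma called none of them (smallest adjusted p = 0.240 and 0.200). Summed B markers were 40.0 to 52.1 in wt thymocytes, 45.4 to 51.6 in tg DP, 40.8 to 52.3 in fetal liver B cells and 51.6 to 61.7 in tg B cells. Of 5 genes of the sort markers (Cd4, Cd8a, Cd8b1, Il2ra and Ighm) 4 were matched. Their summed signal was 10.7 to 13.2 in wt thymocytes, 10.2 to 13.2 in tg DP, 11.0 to 15.0 in fetal liver B cells and 13.3 to 15.5 in tg B cells. Signals of other cells overlapped between wt thymocytes and fetal liver B cells, with hepatocyte markers at 0.404 to 1.20 and 0.310 to 2.54 and erythroid markers at 1.36 to 2.55 and 1.37 to 2.11. The same held for the myeloid markers (193 to 291 and 166 to 217), the natural killer markers (4.89 to 6.37 and 5.35 to 6.24), those of thymic epithelium (1.94 to 2.82 and 1.86 to 2.49) and those of stroma (0.881 to 2.06 and 1.07 to 1.92), and the part of any of these in the results was not tested.

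Probe positions were taken from the annotation of the array and refer to mm9. Both Tcf7 probes lie on chromosome 11, 564 bases apart, at chr11:52066114-52066173 (A_52_P244702) and chr11:52066738-52066797 (A_55_P2109633). The Lef1 probes lie on chromosome 3, where A_51_P420400 spans chr3:130907851-130926012, a stretch of 18162 bases for a probe of 60 and so across an exon junction, and A_55_P2076871 lies 187 bases beyond it at chr3:130926200-130926259. Gata3 was read by A_66_P111011 at chr2:9779551-9779610 and Satb1 by A_51_P324228 at chr17:51879137-51879196. The Bcl11b probes lie 4855 bases apart on chromosome 12, A_51_P171772 at chr12:109153847-109153906 and A_52_P925277 at chr12:109148932-109148991. Probes of Tcf7, Gata3, Bcl11b and Satb1 are listed with descending positions, on the minus strand. Exon and untranslated-region annotation of the positions was not used here, apart from the junction in the Lef1 probe.

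The 3 pairs of probes are shown because the results turn on how far 2 stretches of 1 transcript read alike. Each is written 5′ to 3′, the first 30 of its 60 bases in lower case. The Bcl11b probe A_51_P171772 is given whole, with capitals on a stretch that begins and ends with cysteine codons 2 residues apart, the start of a C2H2 zinc finger. These codons lie in its 1 open reading frame. An open frame does not set it apart, because each of the 8 probes has at least 1, with 2 in Tcf7 A_55_P2109633 and 3 in Lef1 A_55_P2076871.
Tcf7 A_52_P244702: ttttttcattctcgctgtagatagcctgaa
Tcf7 A_55_P2109633: ccaatacttcttggaccaagaatacctggt
Lef1 A_51_P420400: gtacaggtcccagaatgacagctgcctaca
Lef1 A_55_P2076871: actgcaagcgccgacttccaaaaagaaagc
Bcl11b A_51_P171772: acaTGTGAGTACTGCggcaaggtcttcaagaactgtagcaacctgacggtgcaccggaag
Bcl11b A_52_P925277: tttattaccttttctattacgtatcgtatg
The last Bcl11b probe holds 35.0% G and C over its 60 bases, against 53.3% for the zinc-finger probe, and the Tcf7 probes hold 38.3% and 41.7%.

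Tcf7 was higher in thymocytes than in fetal liver B cells on both of its probes, and Satb1 had the next largest difference without passing. In the comparison of 12 wt thymocyte with 6 fetal liver B cell arrays, all 8 probes were higher in thymocytes, with a median difference of 1.75 on the log2 scale against 0.07 for all tested probes, of which 58.8% were higher. Limma called 2 of the 8, both of Tcf7, where it called 26 of 52985 probes in all (0.0491%, with Benjamini-Hochberg adjustment over all of them). Of those 26 probes 15 were higher in thymocytes, against 8 of 31 with quantile scaling. The 2 Tcf7 probes stood 2nd and 3rd of all probes by p. The same 8 directions were found with quantile, median and normexp processing and in the authors' values. With the slide as a fixed block the difference turned below 0 for 1 probe of Lef1 (-0.44) and 1 of Bcl11b (-0.52). Thymocyte and B cell arrays lay mostly on different slides, and only slide 1 held both, with 1 SP4 and 1 IgM-positive array. Tissue and lineage cannot be told apart in this comparison. In bulk RNA of this kind fewer cells that express a gene and less RNA per cell cannot be told apart either.

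**Figure D1:**
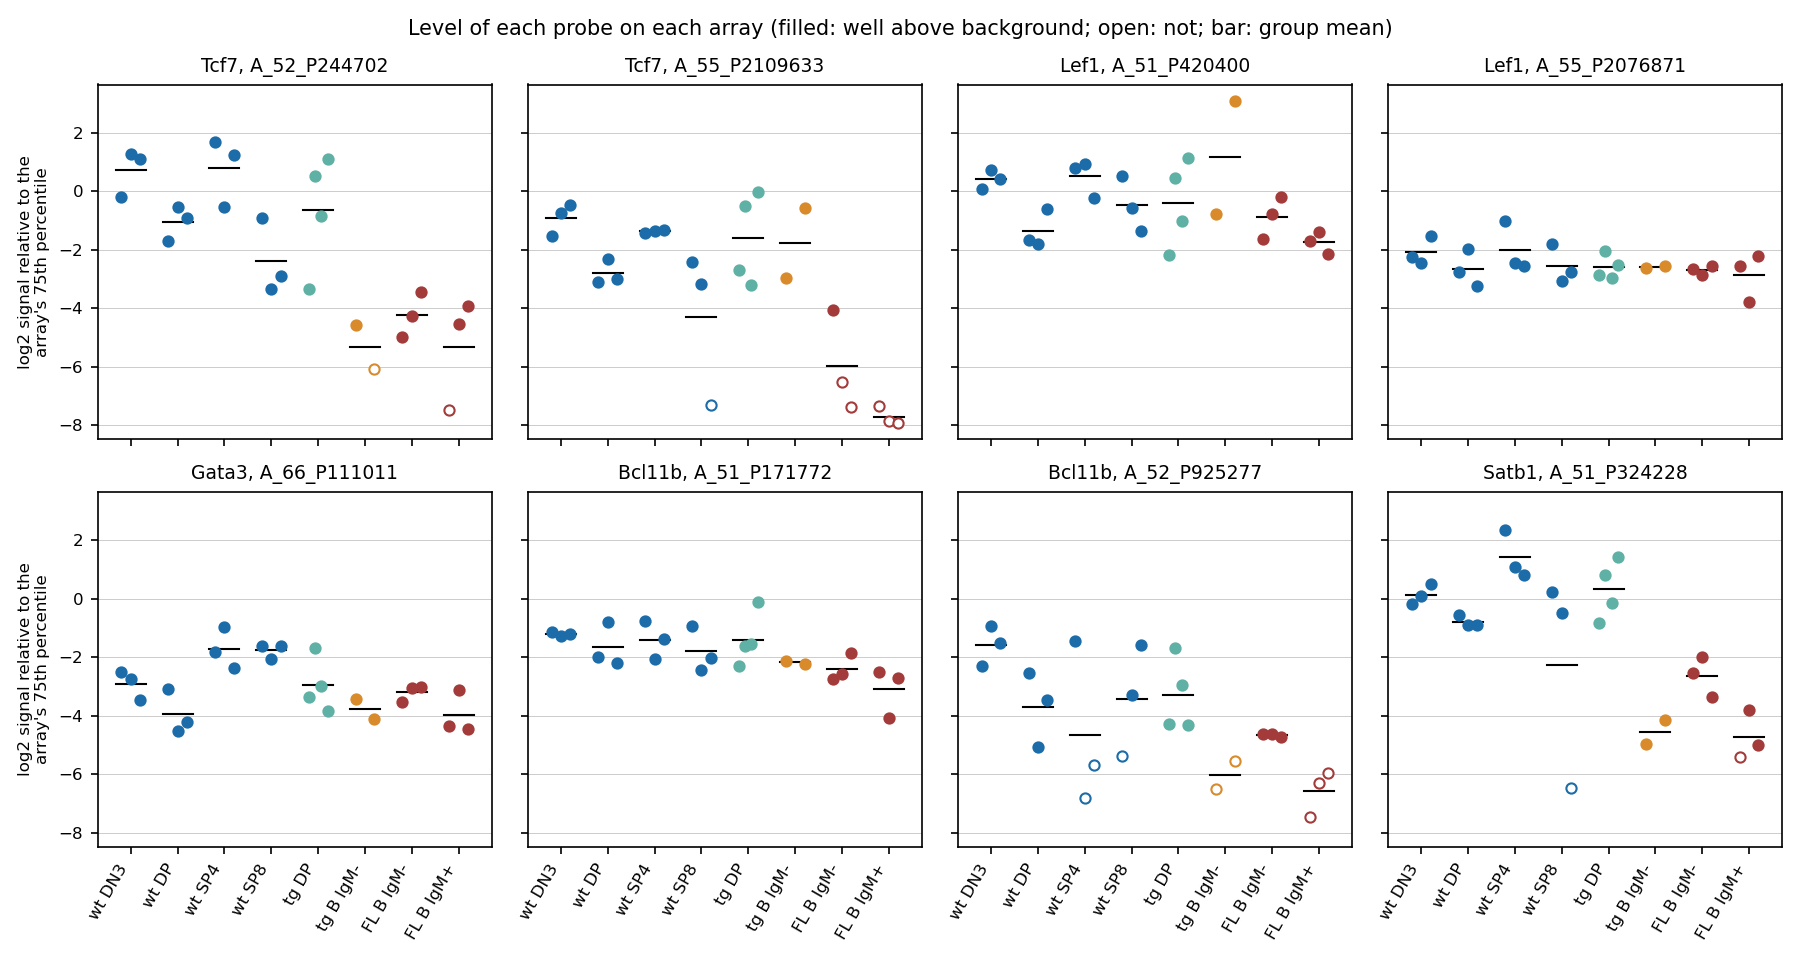
Log2 level of each of the 8 probes on each array (vertical axis, signal relative to the array's 75th percentile) by group (horizontal axis; FL, fetal liver). Filled points are well above background, open points are not, and bars are group means; all 12 wt thymocyte arrays lie above all 6 fetal liver arrays for Tcf7 A_52_P244702, and the Lef1 probe A_55_P2076871 stays between -3.80 and -1.01 everywhere.

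Tcf7 probe A_52_P244702 measured -0.20, 1.27 and 1.08 on the DN3 arrays, -1.70, -0.56 and -0.93 in wt DP, 1.68, -0.55 and 1.25 in SP4 and -0.92, -3.33 and -2.90 in SP8. In fetal liver it measured -4.97, -4.26 and -3.45 in IgM-negative cells and -7.47, -4.55 and -3.92 in IgM-positive cells, the lowest of these not well above background. Every wt thymocyte array lay above every fetal liver array, which was the case for this 1 member probe and for 0.323% of all probes. The difference was 4.29 ± 0.64 (SE; 95% interval 2.94 to 5.64), or 19.5-fold, with an adjusted p of 0.0301. Within slide 1 the SP4 array exceeded the IgM-positive array by 6.92. Without the 3 arrays that stood apart both Tcf7 probes were called again (4.64 and 4.45, adjusted p = 0.0141 and 0.0360).

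The other Tcf7 probe, A_55_P2109633, measured -1.54, -0.73 and -0.48 in DN3, -3.09, -2.30 and -3.00 in wt DP, -1.42, -1.38 and -1.33 in SP4 and -2.44, -3.19 and -7.31 in SP8. In fetal liver it measured -4.06, -6.53 and -7.36 in IgM-negative and -7.34, -7.87 and -7.92 in IgM-positive cells. It was well above background on 11 of 12 wt thymocyte arrays, all but SP8 array 15, and on 1 of 6 fetal liver arrays. The groups overlapped only through SP8 array 15 at -7.31. The fitted difference was 4.50 ± 0.66 (SE; adjusted p = 0.0301), and its size is not exact because most fetal liver arrays were dim. This probe passed the filter on dim probes through thymus groups alone, where it was higher. In the limma fit with no filter its adjusted p was 0.0325. Against IgM-positive cells, where no array was well above background, thymocytes were at least 9.82-fold higher. For such a bound each dim array counts at its own value or at its detection floor, whichever is higher, the floor being its faintest signal that passed as well above background. It bounds the measured means alone, takes no account of the spread between arrays and is not a confidence limit.

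The 2 Tcf7 calls were lost in part with the settings. Each probe was called in 19 alternative fits, of 30 for A_52_P244702 and 29 for A_55_P2109633. Both calls were lost with the slide as a fixed block (adjusted p = 0.216 and 0.622), with the slide as a random block (adjusted p = 0.124 for each) and with arrays that share a title number averaged (adjusted p = 0.0620 and 0.0575). Both were also lost without any 1 of wt DP 3A or 2, DN3 9, SP8 13, IgM-negative 17 or 18 and IgM-positive 21, with adjusted p between 0.0515 and 0.105, and A_52_P244702 alone was lost without IgM-negative 16 (adjusted p = 0.0756). The difference itself stayed between 2.91 and 4.64 for A_52_P244702 and between 1.94 and 4.98 for A_55_P2109633 in all of these fits.

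Lef1, the relative of Tcf7, was spread more evenly over the groups. Probe A_51_P420400 was well above background on all 24 arrays and measured 0.09, 0.73 and 0.41 in DN3, -1.67, -1.79 and -0.63 in wt DP, 0.80, 0.92 and -0.22 in SP4 and 0.50, -0.58 and -1.35 in SP8. In fetal liver it measured -1.63, -0.78 and -0.21 in IgM-negative and -1.70, -1.40 and -2.14 in IgM-positive cells. In all, 6 of 12 wt thymocyte arrays lay above the highest fetal liver array, and the difference of 1.08 ± 0.52 (SE) did not pass (adjusted p = 0.421, interval -0.01 to 2.16). Probe A_55_P2076871 had a range of 2.80 over the 24 arrays, the smallest of the 8 probes. Its difference was 0.45 ± 0.29 (SE, adjusted p = 0.575).

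Gata3 was low in all groups relative to the 75th percentile and highest in the single-positive cells. Its probe measured -2.52, -2.76 and -3.45 in DN3, -3.07, -4.51 and -4.20 in wt DP, -1.81, -0.95 and -2.38 in SP4 and -1.62, -2.08 and -1.61 in SP8. Fetal liver B cells measured -3.52, -3.05 and -3.01 (IgM-negative) and -4.37, -3.14 and -4.44 (IgM-positive), well above background on all 6 arrays. The lineage difference of 1.01 ± 0.32 (SE) did not pass (adjusted p = 0.204), and 8 of 12 wt thymocyte arrays lay above the highest fetal liver array. The wt DP mean, at -3.93, was close to that of IgM-positive B cells, at -3.98. Within slide 1 the SP4 array exceeded the IgM-positive array by 3.41.

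Bcl11b gave 2 pictures. The zinc-finger probe A_51_P171772 was well above background on all 24 arrays and measured -1.14, -1.26 and -1.22 in DN3, -1.98, -0.79 and -2.20 in wt DP, -0.78, -2.06 and -1.37 in SP4 and -0.94, -2.43 and -2.05 in SP8. It measured -2.75, -2.58 and -1.86 in IgM-negative and -2.49, -4.08 and -2.72 in IgM-positive fetal liver cells. The lineage difference of 1.23 ± 0.33 (SE) did not pass (adjusted p = 0.157), it was 0.43 within slide 1, and it turned to -0.52 with the slide as a fixed block. Thymocyte and B cell arrays overlapped on this probe.

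The other Bcl11b probe, A_52_P925277, measured -2.29, -0.94 and -1.53 in DN3 and -2.54, -5.08 and -3.46 in wt DP, all well above background. It measured -1.44, -6.80 and -5.69 in SP4 and -5.36, -3.29 and -1.59 in SP8, where 1 of 3 and 2 of 3 arrays were well above background. Fetal liver arrays measured -4.62, -4.64 and -4.72 in IgM-negative cells and -7.44, -6.30 and -5.96 in IgM-positive cells, none of the latter well above background. The difference of 2.28 ± 0.69 (SE) did not pass (adjusted p = 0.190), and against IgM-positive cells the bound on the means was 4.96-fold higher in wt thymocytes.

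Satb1 measured -0.20, 0.08 and 0.51 in DN3, -0.57, -0.89 and -0.91 in wt DP, 2.34, 1.07 and 0.81 in SP4 and 0.22, -0.49 and -6.48 in SP8. It measured -2.56, -2.01 and -3.36 in IgM-negative and -5.41, -3.80 and -5.02 in IgM-positive fetal liver cells. SP8 array 15, at -6.48 and not well above background, lay below all B cell arrays, while the other 11 wt thymocyte arrays lay above them all. The lineage difference of 3.31 ± 0.70 (SE), or 9.95-fold, did not pass (adjusted p = 0.0819), and Satb1 stood 101st of all probes by p. Without SP8 array 15 it was 3.84 with an adjusted p of 0.000197, and normexp background correction also brought it past the threshold (2.66, adjusted p = 0.0178). On SP8 array 15, 87.6% of probes were well above background, among the lowest shares, and its Tcf7 probe A_55_P2109633 was dim as well.

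Along the wt thymocyte stages no member passed, and in the main scaling no probe on the array did. For DP against DN3, limma called 0 of 52985 probes (0%), with 1085 at an unadjusted p under 0.05. The counts were 0 (0%) and 3402 for SP4 against DP, 0 (0%) and 1211 for SP8 against DP, and 0 (0%) and 2747 for SP4 against SP8. With other scalings or background correction 8 to 18 probes were called for SP4 against DP, none of them a member. These comparisons share control arrays, so their values are given side by side and were not set against each other.

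From DN3 to DP all 8 probes were lower, with a median of -1.40 against 0.04 for all probes, and in the 4 other scalings the count was also 8 of 8. For 5 of the 8, DP and DN3 arrays did not overlap, which was so for 11.8% of all probes: both of Tcf7, Lef1 A_51_P420400, Bcl11b A_52_P925277 and Satb1. Tcf7 was at -1.78 ± 1.05 and -1.88 ± 1.08 (SE), Lef1 A_51_P420400 at -1.77 ± 0.85, Bcl11b A_52_P925277 at -2.11 ± 1.12, Satb1 at -0.92 ± 1.14 and Gata3 at -1.02 ± 0.51, each with an adjusted p of 1.0. Only slide 2 held both groups, with 3 DP arrays and DN3 array 7, and there all 8 probes were lower as well, with differences from -1.45 to -0.42.

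From DP to SP4, 7 of 8 probes were higher, with a median of 1.64 against -0.08 for all probes. For 5 of the 8 the arrays did not overlap, against 15.2% of all probes. Gata3 had the smallest p of the members, 2.21 ± 0.51 (SE) higher in SP4 or 4.64-fold, and stood 73rd of all probes without passing (adjusted p = 0.312, between 0.0999 and 0.868 in the alternatives). Lef1 A_51_P420400 was at 1.86 ± 0.85 (SE, adjusted p = 0.758), Satb1 at 2.20 ± 1.14 (adjusted p = 0.812) and Tcf7 at 1.86 ± 1.05 and 1.42 ± 1.08 (adjusted p = 0.839 and 0.911). Bcl11b A_52_P925277 was at -0.95 ± 1.12, a size that is not exact because 1 of 3 SP4 arrays was well above background. Without SP4 array 11 it was at 0.13. No slide held both SP4 and DP arrays.

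From DP to SP8, 4 of 8 probes were higher, and Gata3 was again the member with the smallest p, 2.16 ± 0.51 (SE) or 4.48-fold, 10th of all probes by p (adjusted p = 1.0). Gata3 was the 1 member of 8 whose SP8 and wt DP arrays did not overlap, against 10.9% of all probes. Tcf7 was at -1.32 ± 1.05 and -1.51 ± 1.08, Satb1 at -1.46 ± 1.14 and Lef1 A_51_P420400 at 0.89 ± 0.85. On SP8 array 15 neither Satb1 nor Tcf7 A_55_P2109633 was well above background, so their differences carry no exact size. Without that array Satb1 was at 0.65, higher in SP8. Over all fits the Tcf7 A_55_P2109633 difference ranged from -2.45 to -0.02. All DP arrays lay on slide 2 and all SP8 arrays on slide 3, so that slide and stage cannot be told apart. On slide 3, which also held DN3 arrays 8 and 9, Gata3 in SP8 exceeded DN3 by 1.34 and in SP4 by 1.01, and Tcf7 A_52_P244702 in SP8 fell short of DN3 by 3.56 (-2.38 against 1.18). This last comparison was made after the data had been seen.

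SP4 and SP8 differed most on Satb1 and Tcf7, none passing. Satb1 was 3.66 ± 1.14 (SE) higher in SP4 (adjusted p = 0.735), Tcf7 A_52_P244702 3.18 ± 1.05 (adjusted p = 0.757) and Tcf7 A_55_P2109633 2.94 ± 1.08 (adjusted p = 0.844), and for these 3 of 8 probes the arrays did not overlap, against 10.7% of all probes. Without SP8 array 15 the Satb1 difference was 1.55 and that of Tcf7 A_55_P2109633 was 1.44, while that of Tcf7 A_52_P244702 was 2.92. Gata3 was level in both, at -1.72 ± 0.72 (SD, n = 3) and -1.77 ± 0.27 (SD, n = 3), a difference of 0.05 with an interval of -1.03 to 1.13. Within slide 3, with 2 SP4 and 3 SP8 arrays, the differences were 3.83 for Satb1, 3.85 and 2.94 for Tcf7 and -0.33 for Gata3.

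**Figure D2:**
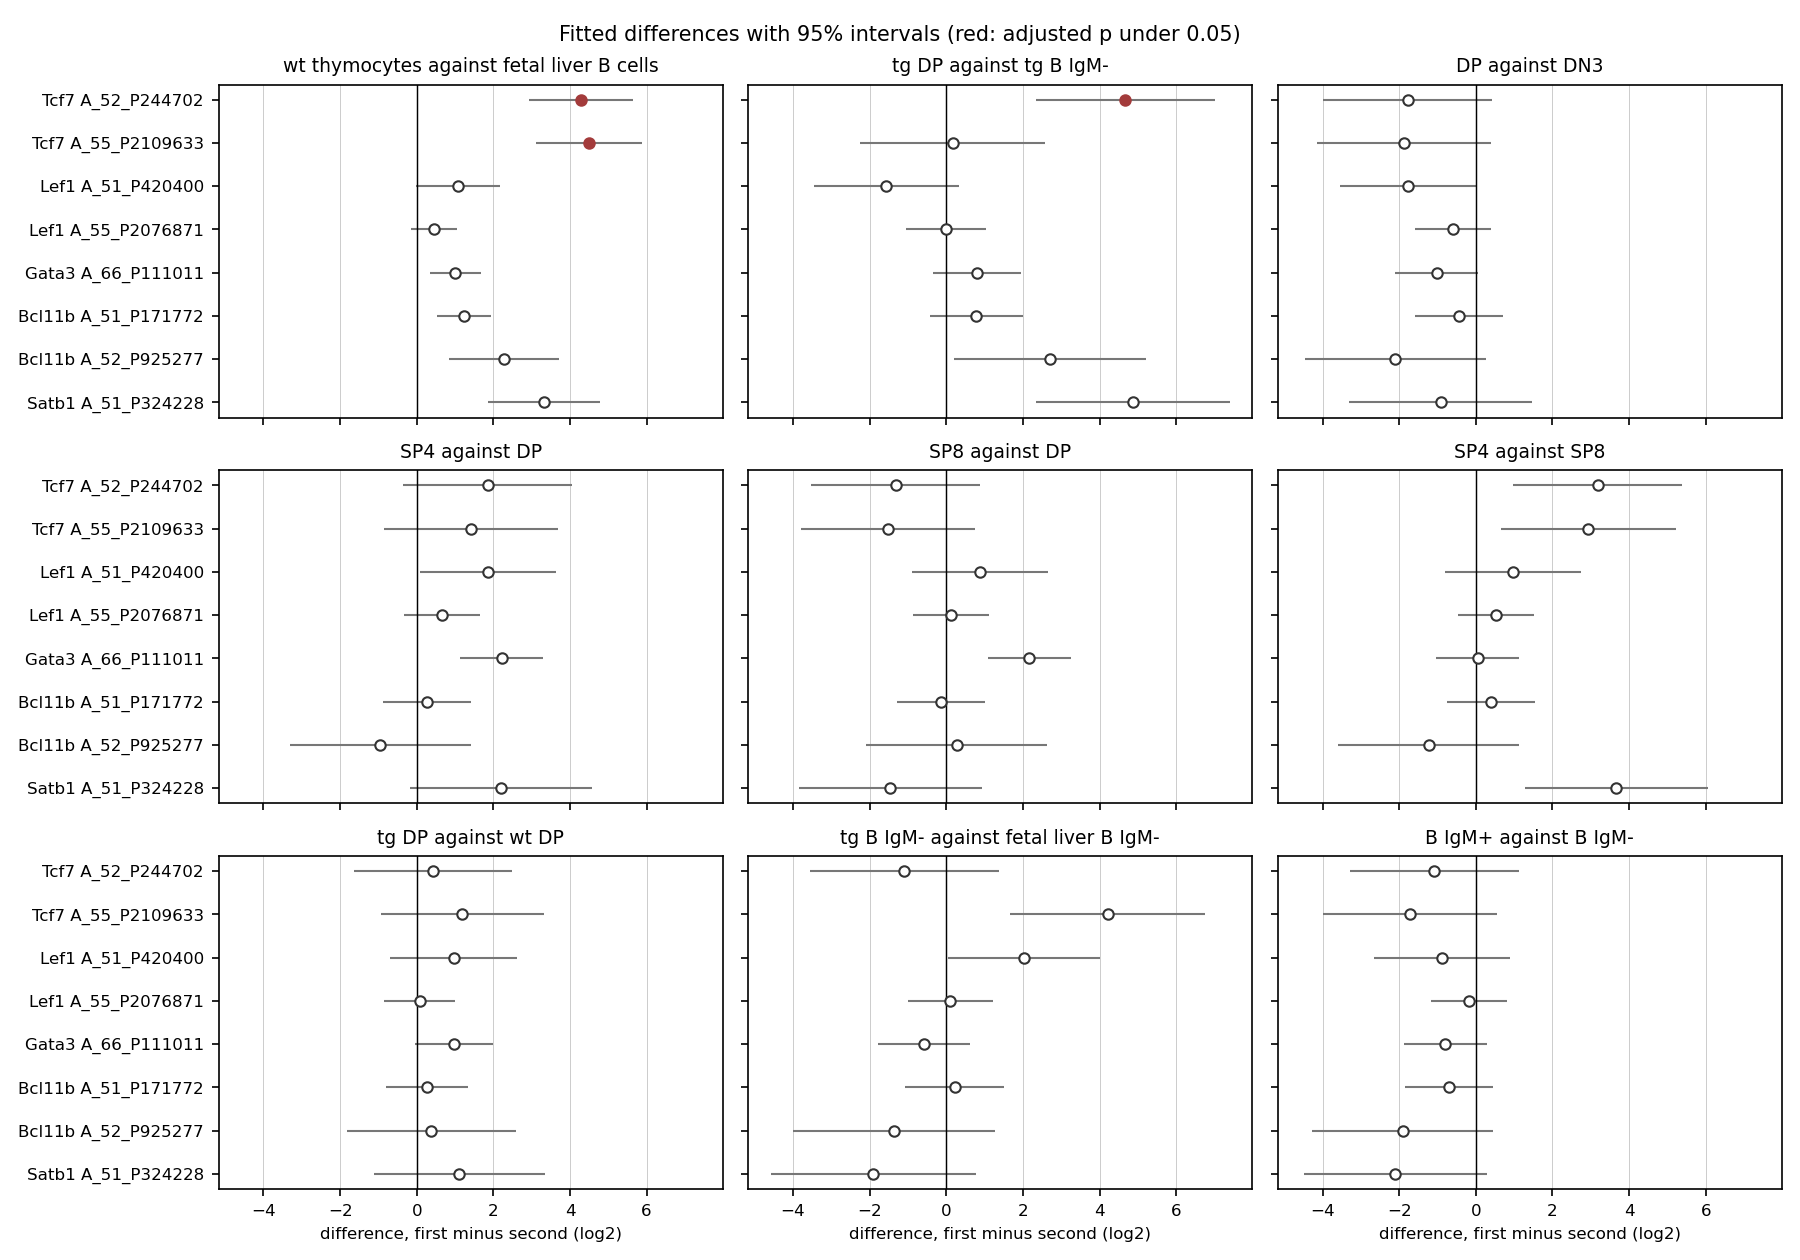
Fitted log2 difference of each probe (points, first group minus second) with its 95% interval (lines) in the 9 comparisons, with probes on the vertical axis. Red points have an adjusted p under 0.05, which are both Tcf7 probes in wt thymocytes against fetal liver B cells and Tcf7 A_52_P244702 in tg DP against tg B cells; all 8 points lie left of 0 for DP against DN3. Points of probes not well above background in a group, such as Tcf7 A_55_P2109633 in IgM-positive B cells, carry no exact size.

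Within the transgenic thymus, DP and IgM-negative B cells (4 against 2 arrays) differed on Tcf7 probe A_52_P244702. It measured -3.35, 0.53, -0.86 and 1.08 in tg DP and -4.56 and -6.09 in tg B cells, where the second array was not well above background. The groups did not overlap, which was so for 20.2% of all probes. The difference was 4.67 ± 1.11 (SE), or 25.5-fold, with an adjusted p of 0.0466. This was the 1 member probe called, where limma called 770 of 52985 (1.45%), 512 of them higher in tg DP, against 370 of 1081 with median scaling, which moved the median of all probes from 0.18 to -0.10. The call was lost in 14 of 18 alternatives, among them without the 3 arrays that stood apart (4.81, adjusted p = 0.118), without tg DP 6, 6A or 6B (adjusted p = 0.0922, 0.0744 and 0.0896) and without tg B 23 (3.91, adjusted p = 0.367). No slide held both groups, and whether they share a transgenic line is not stated. Lineage, slide and line therefore cannot be told apart in this comparison.

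Satb1 in the same comparison measured -0.82, 0.82, -0.16 and 1.43 in tg DP and -4.95 and -4.14 in tg B cells, again without overlap, as for those 20.2% of all probes. The difference of 4.86 ± 1.20 (SE) lay just outside the threshold (adjusted p = 0.0517), and it passed with normexp processing, median scaling or 1 probe per gene name. Bcl11b A_52_P925277 was well above background on all 4 tg DP arrays and on neither tg B array. The bound on the means was 4.18-fold higher in tg DP, and the fitted difference did not pass (interval 0.20 to 5.22, adjusted p = 0.221).

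The second Tcf7 probe went a different way in tg B cells. A_55_P2109633 measured -2.68, -0.50, -3.21 and -0.03 in tg DP and -2.97 and -0.57 in tg B cells, well above background on all 6 arrays, a difference of 0.17 ± 1.15 (SE, adjusted p = 0.956, interval -2.24 to 2.58). Both tg B arrays lay above all 6 fetal liver arrays on this probe, and neither did on A_52_P244702. Between the tg B and the 3 IgM-negative fetal liver arrays, 33.4% of all probes did not overlap. The share against all 6 fetal liver arrays was not computed. Lef1 A_51_P420400 measured -2.18, 0.44, -1.01 and 1.14 in tg DP and -0.77 and 3.09 in tg B cells, where array 23 gave the highest Lef1 value of all 24 arrays.

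Between tg and fetal liver IgM-negative B cells limma called 18 of 52985 probes (0.034%) and no member. Of the 18 probes 6 were higher in tg, against 24 of 32 with normexp processing. Tcf7 A_55_P2109633 had a fitted difference of 4.21 ± 1.21 (SE, adjusted p = 0.144), whose size is not exact because 2 of 3 fetal liver arrays were not well above background, while A_52_P244702 was at -1.10 ± 1.17 (adjusted p = 0.647). Lef1 A_51_P420400 was at 2.03 ± 0.95 (adjusted p = 0.293), and without tg B array 23 this was 0.10. The Tcf7 A_55_P2109633 difference was 3.01 without that array (adjusted p = 0.642). Without tg B array 22, which left array 23 alone and assumed to vary like the other groups, both were called (5.41 with adjusted p = 0.0226 and 3.96 with adjusted p = 0.0110), in a fit that called 7984 probes. Satb1 was at -1.90 ± 1.27 and Gata3 at -0.58 ± 0.58. In the main scaling 4 of 8 members were higher, and 7 of 8 were so with quantile scaling and in the authors' values, which moved the median of all probes from -0.27 to -0.03.

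Between tg and wt DP cells all 8 probes were higher in tg in the main and the 4 other scalings, but 4 of them turned lower in other fits. With arrays of 1 title number averaged, Tcf7 A_52_P244702 was at -0.61, Lef1 A_55_P2076871 at -0.18 and Bcl11b A_51_P171772 at -0.26, and without wt DP array 2 Bcl11b A_52_P925277 was at -0.31. As reported, the members had a median of 0.69 against -0.08 for all probes. The arrays of both groups overlapped for each of the 8, and they did not overlap for 6.5% of all probes. None passed, and limma called 0 of 52985 (0%), with 1699 at an unadjusted p under 0.05. Gata3 came nearest, at -3.35, -1.69, -2.98 and -3.83 in tg and a difference of 0.97 ± 0.48 (SE, adjusted p = 1.0). On slide 2, which held all 3 wt and 3 of 4 tg DP arrays, the differences were 1.32 and 1.55 for Tcf7, 1.55 and 0.16 for Lef1, 1.10 for Gata3, 0.56 and 0.71 for Bcl11b and 1.49 for Satb1. The tg arrays spread widely, from -3.35 to 1.08 on Tcf7 A_52_P244702, and tg DP array 4, the one on slide 1, was the lowest of the 4 there. A test of the difference between the tg effects in B and in DP cells, added after the data had been seen, called 3 of 52985 probes (0.00566%) and no member.

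Fetal liver IgM-positive cells had lower values than IgM-negative cells on 7 probes that can be ordered, of which Lef1 A_55_P2076871 turned higher with quantile scaling and in the authors' values (0.14 in each). Tcf7 A_55_P2109633 was well above background on 0 of 3 IgM-positive and 1 of 3 IgM-negative arrays, and no direction or fold is given for it. Over all probes the median was -0.18 and 32.8% were higher. None passed, and limma called 0 of 52985 (0%), with 3923 at an unadjusted p under 0.05. Satb1 was at -2.10 ± 1.14 (SE, adjusted p = 0.710), Bcl11b A_52_P925277 at -1.91 ± 1.12 (adjusted p = 0.738) and Tcf7 A_52_P244702 at -1.09 ± 1.05. No IgM-positive array was well above background on that Bcl11b probe. Its bound on the means was 1.98-fold higher in IgM-negative cells, but the fitted interval of -4.27 to 0.46 includes 0. On slide 4, with 2 IgM-positive and 3 IgM-negative arrays, the differences of those 7 probes lay between -1.77 and -0.01.

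In the order of the 8 group means, most neighbours could not be separated. Of 7 neighbouring pairs, the arrays of both groups overlapped in 6 for Tcf7 A_52_P244702, 7 for A_55_P2109633, 7 for each Lef1 probe, 6 for Gata3, 7 and 6 for the Bcl11b probes and 5 for Satb1. Neighbours have adjacent means by choice, and their overlap was not counted over all probes. The counts therefore describe the order and show nothing particular to the members. The gap in the Tcf7 A_52_P244702 order lay between SP8 (-2.38 ± 1.29 (SD, n = 3)) and fetal liver IgM-negative cells (-4.23 ± 0.76 (SD, n = 3)). For Gata3 it lay between SP8 (-1.77 ± 0.27 (SD, n = 3)) and DN3 (-2.91 ± 0.48 (SD, n = 3)).

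Probes of the same gene did not read alike to the same degree. Over the 24 arrays Pearson's r was 0.67 for the Tcf7 pair, 0.35 for the Lef1 pair and 0.41 for the Bcl11b pair, values that describe arrays sharing groups and slides and carry no p. Without both tg B arrays (n = 22) it was 0.84 for the Tcf7 pair, 0.45 for the Lef1 pair and 0.40 for the Bcl11b pair. In the 9 comparisons the Tcf7 probes had opposite signs once, between tg and fetal liver IgM-negative B cells, where they lay 5.31 apart, although with quantile scaling and in the authors' values A_52_P244702 was at 0.19 and 0.18 there and had the same sign. On tg B array 23 that probe was not well above background. The Bcl11b probes had opposite signs in 4 comparisons and lay up to 1.93 apart, and the Lef1 probes in none, up to 1.93 apart. For Bcl11b the signs also depended on scaling. With quantile scaling and in the authors' values A_52_P925277 was at 0.07 and 0.06 between tg and fetal liver IgM-negative B cells. For SP8 against DP it was at -0.06 and -0.07, and in both comparisons its sign then matched the other probe. The largest Bcl11b gap was in tg DP against tg B cells, where A_52_P925277 was well above background on neither tg B array. Whether the pairs detect different transcript forms was not tested.

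**Figure D3:**
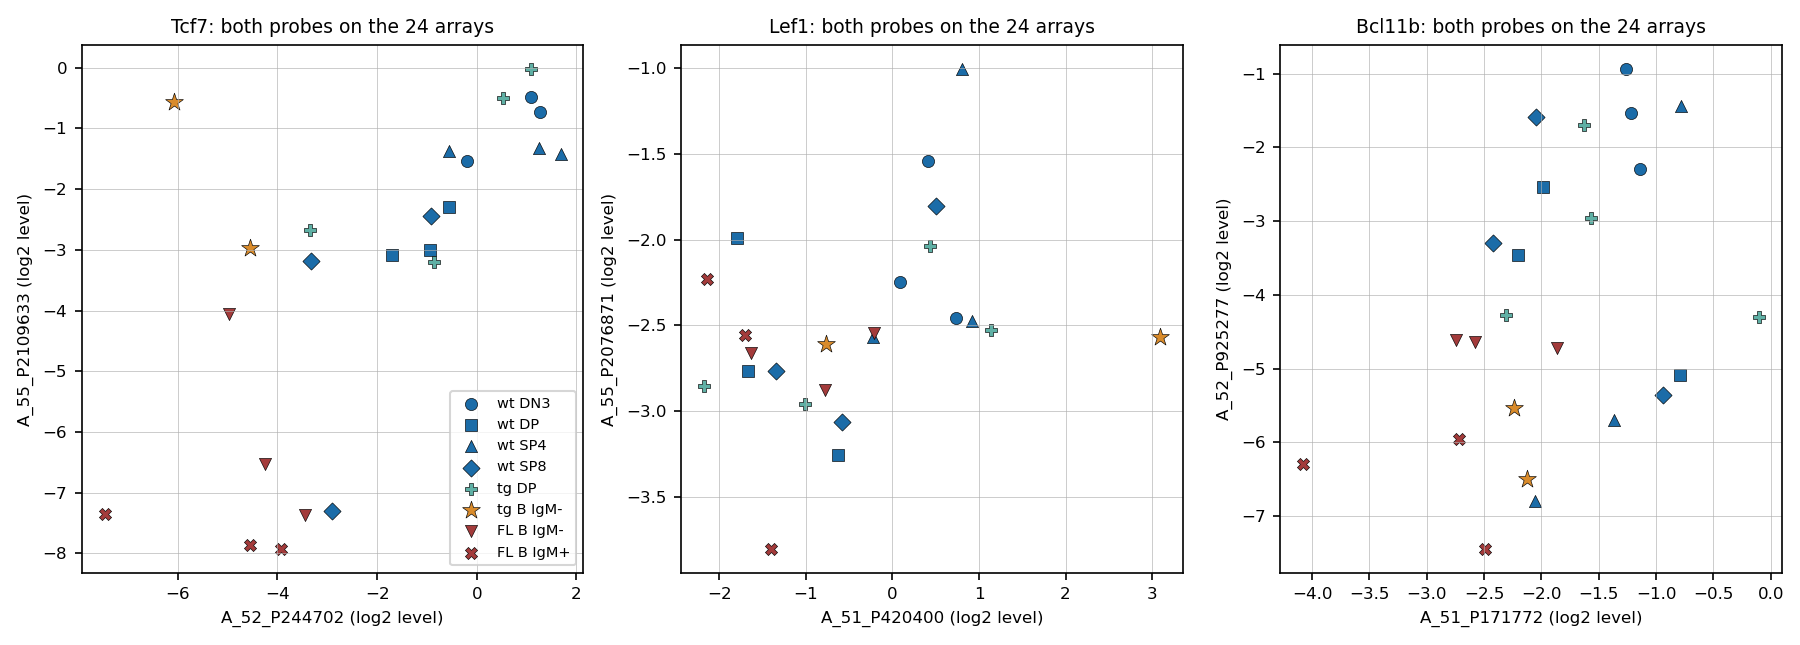
Level of 1 probe of Tcf7, Lef1 and Bcl11b (horizontal axis, log2) against the other probe of the same gene (vertical axis, log2) on the 24 arrays, with symbols for the 8 groups (FL, fetal liver). The 2 tg B arrays (stars) lie at the upper left of the Tcf7 panel, at -4.56 and -6.09 on the horizontal and -2.97 and -0.57 on the vertical axis.

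Among different members, Satb1 followed Tcf7 most closely, with r = 0.83 against A_52_P244702 and 0.76 against A_55_P2109633 over 24 arrays, and 0.67 and 0.91 within the 12 wt thymocyte arrays. The r of 0.91 includes SP8 array 15, where neither probe was well above background (Tcf7 A_55_P2109633 at -7.31, Satb1 at -6.48). Both had their lowest wt thymocyte value there, and r was not computed without that array. Gata3 followed Tcf7 less, with r = 0.41 and 0.20 over all arrays and -0.13 and -0.16 within the wt thymocyte arrays. Among all other named genes, members included, the probes most like Tcf7 A_52_P244702 were Satb1 (0.83), the ribosomal protein gene Rpl21 (0.83) and the transcription factor Ets1 (0.82). Those most like Lef1 A_51_P420400 were Anp32b (0.87), Zfp84 (0.83) and the histone gene H3f3b (0.83), which fell to 0.80, 0.75 and 0.72 without tg B array 23. Gata3 was closest to Zfp667 (0.80), the growth factor receptor Igf1r (0.75) and Tchh (0.73). Bcl11b A_51_P171772 was closest to Dnajb5 (0.78), Fnbp1 (0.77) and Otulinl (0.77), and Satb1 to 1700116B05Rik (0.89), V1rd19 (0.83) and Tcf7 (0.83).

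Of 16 partners and upstream genes (Notch1, Runx1, Ets1, Tcf12 and others), 15 were tested, of which 7 were higher and 8 lower in wt thymocytes than in fetal liver B cells and none was called (median -0.01 against 0.07 for all probes). In tg DP against tg B cells 10 of the 15 were higher and 2 were called, Tcf12, an E protein (3.54, adjusted p = 0.0218), and Ets1 (3.52, adjusted p = 0.0221). Of all probes 60.8% were higher there and 1.45% were called. The list median was 0.11 against 0.18 for all probes. Of 18 T cell genes downstream, such as the CD3 chains, 16 were matched and tested. In wt thymocytes 12 of the 16 were higher than in fetal liver B cells and none was called (median 0.18 against 0.07 for all probes, of which 58.8% were higher). From DN3 to DP 11 of these 16 were lower and none was called (median -0.39 against 0.04 for all probes, of which 55.9% were higher).

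Of 16 progenitor genes that commitment shuts off, such as Spi1, Kit and Lmo2, 15 were tested. In wt thymocytes 11 of them were higher than in fetal liver B cells (median 0.12 against 0.07 for all probes, of which 58.8% were higher). In SP4 11 of them were lower than in DP (median -0.18 against -0.08 for all probes, of which 41.7% were higher). None was called in any of the 9 comparisons. Of 10 B lineage factors, such as Pax5 and Ebf1, 6 were lower in wt thymocytes (median -0.17) and 7 lower in tg DP than in tg B cells (median -0.53), again with none called. All probes had medians of 0.07 and 0.18 in these comparisons, with 58.8% and 60.8% higher. The paralogs Tcf7l2, Gata1, Gata2, Gata4 and Bcl11a were tested as well. In wt thymocytes against fetal liver B cells their differences lay between -0.14 (Gata2) and 0.37 (Bcl11a), with adjusted p of 0.669 or more.

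**Figure D4:**
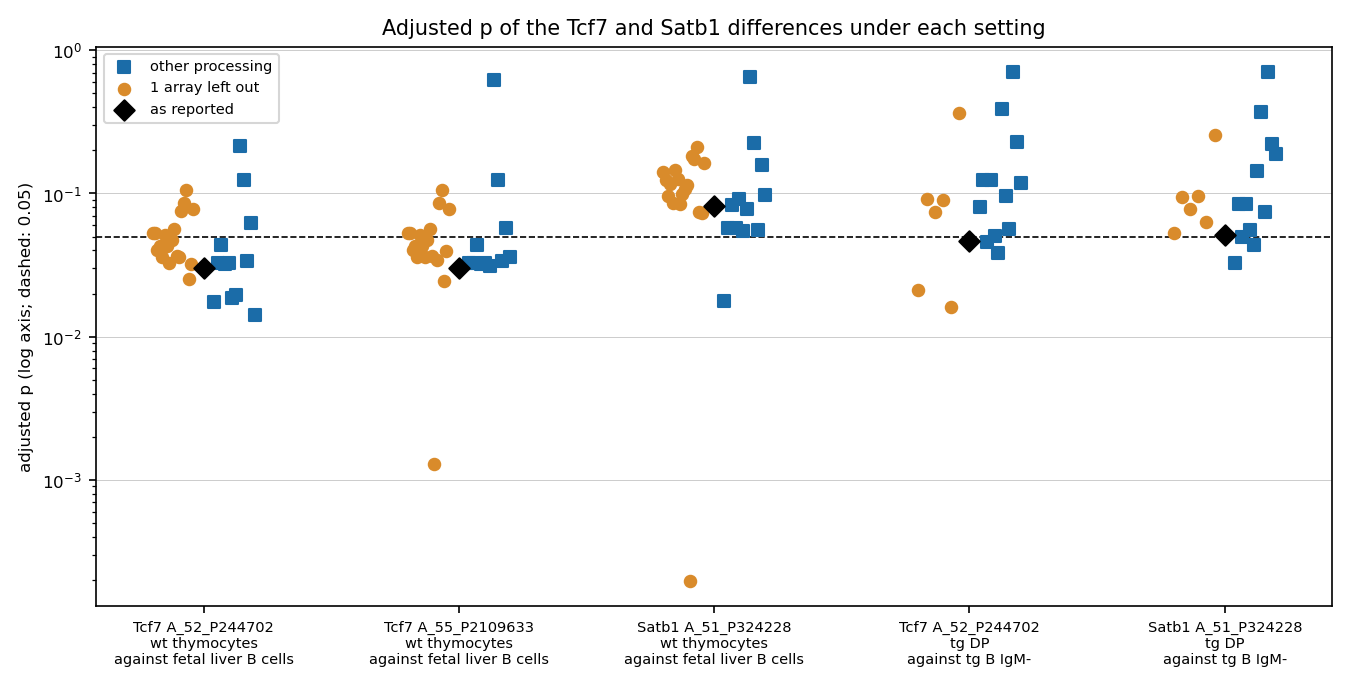
Adjusted p (vertical log axis, dashed line at 0.05) of the Tcf7 and Satb1 differences in the 2 lineage comparisons, as reported (diamonds), with other processing (squares) and with 1 array left out (circles). Points of each Tcf7 difference lie on both sides of the line, and 1 Satb1 point, without SP8 array 15, lies at 0.000197.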

How the data were processed

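RNA of 24 sorted samples was measured on single-colour Agilent arrays; per the labels' protocols, polyadenylated RNA was captured from lysed cells, copied, amplified by PCR and labelled with Cy3. Amplification of few cells can add spread between replicates. Per the file headers, the deposited intensity values (processed, mean and background signal) come from Feature Extraction 10.7.3.1. The authors' deposited series matrix holds log2 values equal in distribution between arrays, made with software not given in the sources used here, and served as an alternative.

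Control spots and spots marked non-uniform (248) or as population outliers (2858) were left out, and spots of 1 probe were averaged. Processed signals were put on the log2 scale, and each array's 75th percentile was subtracted. A probe was tested if some group had it well above background on all its arrays (52985 of 55681). Gene names came from accessions through a reference gene table for 26762 probes and otherwise from the files. Differences were tested per probe with limma 3.58.1 (R 4.3.3), which fitted a mean for each group over all 24 arrays and moderated the variances with eBayes. A call needed an adjusted p (Benjamini-Hochberg over all tested probes) under 0.05. The fit was tested on simulated data. The number of arrays limits the precision.

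All member probes are named, with list genes past the threshold (up to 4 per list and comparison), paralogs and, for each member's brightest probe, the 3 named probes of other genes with the highest r. Of 60 list genes 56 were tested: Trbc2 and Trac had no matching name and Hes1 and Id2 did not pass the filter. A list gene stands for its brightest probe. Some results that this choice covers are left out of the text. The members and lists were chosen with earlier results of these data known. Slides (4, from the file headers) were tested as batches. Alternatives changed background correction, scaling, filter, probe choice, arrays fitted, slide blocks and array weights, and left out single arrays.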

Additional observations from a re-analysis of the deposited data

Results flagged for a closer look

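Gata3 differed in sign between the 2 transgenic comparisons in the main scaling. All 4 tg DP arrays lay above the wt DP mean (difference 0.97) and both tg B arrays lay below the mean of fetal liver IgM-negative cells (difference -0.58). The effect in B cells minus the effect in DP cells was -1.55 ± 0.75 (SE), which did not pass in limma's test of the difference (adjusted p = 0.548). With quantile scaling and in the authors' values Gata3 was higher in tg B cells too, at 0.15 and 0.14, so the opposite signs depend on the scaling.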

How the results depend on the processing

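No paired analysis was possible because the groups compared share no replicate numbers. For wt thymocytes against fetal liver B cells 2 member probes were called. The count was 1 with 1 probe per gene name and 0 with a fixed or random slide block, with arrays of 1 title number averaged, and with only probes well above background on all arrays, where neither Tcf7 nor Satb1 was tested; it was 3 with normexp and 2 in the other alternatives, and 0 to 3 with 1 array left out. For tg DP against tg B cells, with 1 called, the count was 2 with median scaling and 1 probe per gene name, 1 with normexp (Satb1 in place of Tcf7), 0 with quantile scaling, the authors' values, no filter, only probes well above background on all arrays, only the groups compared, either slide block, array weights, averaged title numbers and without the 3 arrays apart, and 0 to 2 with 1 array left out. For tg against fetal liver IgM-negative B cells it was 0, except 2 without tg B 22 (0 to 2). In the other 6 comparisons it was 0 in every alternative run.

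Of the 17 differences with an unadjusted p under 0.05, 1 changed sign in 1 of 377 fits, Bcl11b A_51_P171772 in wt thymocytes against fetal liver B cells (-0.52 with the slide as a fixed block). Of the other 55, 20 changed sign in at least 1 fit, 56 of 1024 fits in all. Sign changes of the main value were not traced to a cause, which was not tested. Settings without a probe (1 probe per gene name, the strict filter) gave no value for it. Some B cell, SP4 and SP8 arrays had Tcf7, Bcl11b A_52_P925277 or Satb1 not well above background, and differences that rest on those arrays carry no exact size.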
